A study of Rattus norvegicus with 9 samples.

Results

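Expression of 9 genes of apoptotic cell uptake was followed in cultured rat Sertoli cells at 3 ages. They were the TAM receptors Tyro3, Axl and Mertk, their ligands Gas6 and Pros1, the bridging protein Mfge8, the uptake receptors Scarb1 and Lrp1, and the engulfment adaptor Elmo1. A probe belonged to the set when its gene name, in the annotation carried by the array files of replicate 1 or of replicate 3, was one of these genes. This rule found 19 of the 41012 probes on the array, for 9 genes of the 22644 tested. Of the 19 probes, 15 passed the filter on dim signals and 4 gave a signal near background on all 9 arrays.

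Sertoli cells are the somatic nurse cells of the seminiferous tubule. The study compared Sertoli cells of rats aged 5, 12 and 60 days, with 3 arrays per age. All cells were kept in culture for 4 days and then received pulses of 50 ng/ml oFSH with 1e-07 M testosterone over 11 h, so hormone treatment was common to every group and there was no culture without it. The labels give no strain or genotype, and they do not say whether the replicates came from separate animals or cultures, so p-values measure only the spread between these samples.

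Most germ cells die before they mature, and Sertoli cells engulf their remains and the residual bodies that spermatids shed. Dying cells expose phosphatidylserine, which is bound by bridging proteins such as Gas6, protein S (Pros1) and Mfge8 or directly by receptors such as Scarb1. The TAM receptor tyrosine kinases recognise cells coated with Gas6 or protein S, and mice that lack all of them lose their germ cells. Elmo1 acts behind such receptors with Dock1 to activate Rac1, which drives the membrane around the cell corpse.

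The receptors are close relatives, so the probes that measured them are shown as the array files list them, with the longest run that a probe shares with a probe of another TAM receptor in capitals. The probes of Pros1, Mfge8 and Lrp1 that the differences between ages rest on, and 1 of the Scarb1 probes, follow without capitals.
Mertk A_43_P12346: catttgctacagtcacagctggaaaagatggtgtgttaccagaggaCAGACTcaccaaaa
Axl A_44_P353729: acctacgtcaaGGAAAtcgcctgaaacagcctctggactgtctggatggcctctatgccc
Axl A_43_P16070: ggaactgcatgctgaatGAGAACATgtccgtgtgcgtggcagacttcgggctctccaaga
Tyro3 A_44_P337455: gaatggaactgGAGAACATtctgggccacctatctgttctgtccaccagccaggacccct
Pros1 A_44_P540126: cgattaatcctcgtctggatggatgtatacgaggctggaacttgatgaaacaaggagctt
Mfge8 A_42_P497225: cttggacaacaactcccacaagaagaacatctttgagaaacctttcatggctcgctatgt
Lrp1 A_44_P375553: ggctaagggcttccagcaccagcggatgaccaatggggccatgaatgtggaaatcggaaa
Scarb1 A_44_P379244: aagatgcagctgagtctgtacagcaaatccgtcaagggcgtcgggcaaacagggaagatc

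Each probe has 60 bases. The longest run shared between receptors was 6 bases for the Mertk probe, 8 bases for Tyro3 and the second Axl probe, and 5 bases for the first Axl probe. Probes were compared only with each other and not with the transcripts of the other receptors. These runs therefore cannot show whether a probe also binds RNA of another receptor. In the rn4 build, as the files place them, Mertk lies at chr3:116416248-116416307 and Tyro3 at chr3:106327223-106327282. The Axl probes lie at chr1:80965095-80966812 and chr1:80967569-80969294, spans longer than the probes themselves. Lrp1 lies at chr7:67521714-67521773 and Mfge8 at chr1:134870731-134870790, while Pros1 was placed on unassigned sequence. Whether a probe lies in an exon or an untranslated region was not analysed here.

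Signals are given as log2 of the processed spot intensity minus log2 of the 75th percentile of its array, so 0 is the 75th percentile of the array and 1 unit is a doubling. Differences are the later minus the earlier age and come from 1 limma fit to all 9 arrays, and "rose", "fell" and "called" are used of genes with a Benjamini-Hochberg adjusted p under 0.05 over all genes tested. Between 49.1% and 63.0% of probes were well above background per array, and no member probe was saturated. Each replicate number is 1 slide that holds 1 array of every age at a fixed position, so position on the slide and age cannot be told apart. Arrays with the same number deviated from their age means together, with correlations of 0.181 to 0.601 over the 9 pairs, against -0.513 to 0.0942 over the 18 pairs with different numbers. Values with the replicate number as a block are therefore given beside the member results whose call it changed and beside the counts of each gene list. The calls of Lrp1, Mfge8 and Pros1 made without the block were kept with it. Fits that leave out arrays have no block, so they count what a slide shares as spread.

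The direction of several differences depended on the scale. On a scale set by the 7 of 10 spike-in controls that were measured, 1 of them saturated, all log2 differences shifted by -1.35 between 12 and 5 days, by 0.91 between 60 and 12 days and by -0.44 between 60 and 5 days. The slides differed in this: between 5 and 12 days the shift was -2.16, -0.038 and -1.85 on slides 1, 2 and 3, between 12 and 60 days it was 0.98, 0.29 and 1.45, and between 5 and 60 days -1.18, 0.25 and -0.39. Without replicate 2 the mean shifts were -2.002, 1.22 and -0.78, and without replicate 1 they were -0.94, 0.87 and -0.072. The share of called genes that were higher at the later age went from 49.5% to 3.37%, from 48.3% to 85.1% and from 48.9% to 36.8% in these comparisons. The Sertoli cell markers tested numbered 19. Of these, 15 were well above background on every 5 day array, 17 on every 12 day array and 19 on every 60 day array. Sox9 was well above background on 0 of the 5 day arrays and Amh on all 3. Between 5 and 12 days 13 rose, Sox9 among them, and 0 fell, with Amh not called. Between 12 and 60 days 6 rose and 1, Amh, fell. Markers of other cells were present too. The log2 summed signal of 16 macrophage markers ranged over 3.35 to 4.11 at 5 days, 1.62 to 1.86 at 12 days and 2.15 to 2.35 at 60 days, with Cd163 and Itgam never above background. That of 14 peritubular and fibroblast markers ranged over 9.30 to 10.2, 8.50 to 8.87 and 5.53 to 7.96 at these ages (0 rose and 11 fell between 5 and 60 days), and that of 15 spermatid markers was 2.11 to 2.77, 2.51 to 3.00 and 5.08 to 5.82. That of 13 spermatocyte markers was -0.42 to -0.19 at 5 days, 3.98 to 4.37 at 12 days and 6.69 to 7.53 at 60 days, with 10 rising between 5 and 12 days and 13 between 5 and 60 days. Markers well above background on every array of an age numbered 3, 3 and 14 for spermatids and 1, 9 and 13 for spermatocytes. Odf2 alone, at 1.79, 1.82 and 2.55, made up most of the spermatid sum at 5 days. In such bulk RNA, fewer cells of a type and less RNA per cell cannot be told apart.

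Calls among the 9 genes were few in the fit without the replicate block, where 9 genes allow only a coarse comparison with all genes. Between 5 and 12 days none of the 9 was called by limma (0 rose and 0 fell, with 2 at an unadjusted p under 0.05), beside 12.4% of all genes tested, 6.15% higher and 6.28% lower at the later age. Between 12 and 60 days 1 gene was called, Lrp1, which rose, beside 25.3% of all genes (12.2% higher and 13.1% lower). Between 5 and 60 days Mfge8 rose and Pros1 fell, 2 of 9 genes beside 35.3% of all genes (17.3% higher and 18% lower). The F-test over the 3 ages called Lrp1 and Pros1, beside 36.7% of all genes. With the replicate block, the counts were 1 of 9 beside 17.7%, 1 beside 34.3%, 4 beside 44.4% and 5 beside 47.4%. The last lies above the share of all genes, and none of these counts is read as a trait of the members. One of the members called in the last 2 counts was Elmo1, which passed the filter on dim signals only through its 60 day arrays.

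**Figure D1:**
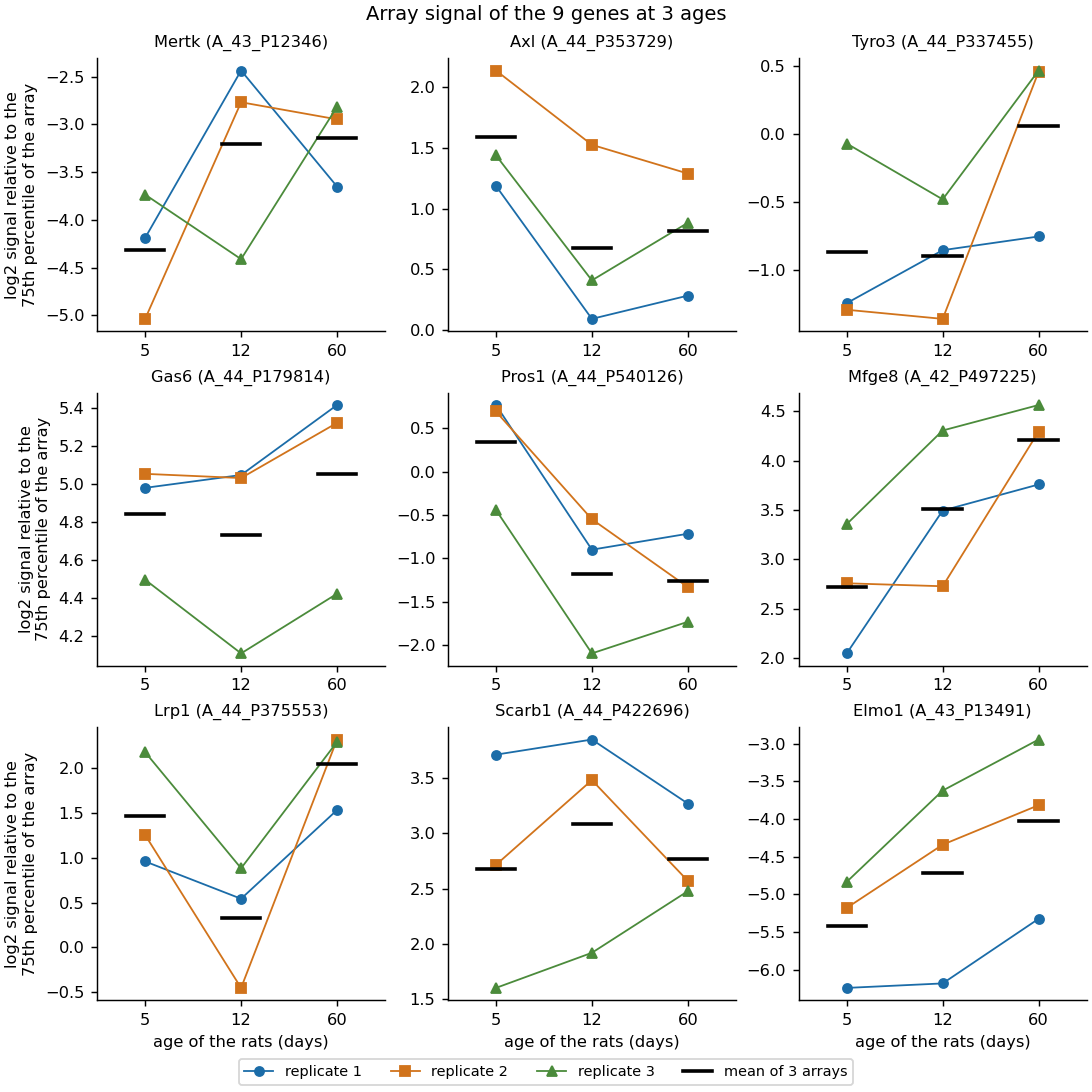
Log2 signal scaled to each array's 75th percentile (y axis) of the probe that stands for each of the 9 genes, at 5, 12 and 60 days (x axis). Points are single arrays, lines join the arrays of 1 replicate number, and black bars are means of 3 arrays. Lrp1 dips at 12 days on all 3 slides, Pros1 is lower at 12 and 60 days than at 5 days on all 3, and the slides of Scarb1 lie apart from each other at 5 and 12 days.

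Among the receptors, Mertk lay near background at the younger ages and no TAM receptor was called in any comparison on the 75th percentile scale without the block. Mertk, the engulfment receptor that is defective in the RCS rat with inherited retinal degeneration, gave signals of -4.19, -5.04 and -3.74 at 5 days for replicates 1, 2 and 3. The signals were -2.43, -2.77 and -4.41 at 12 days and -3.65, -2.95 and -2.81 at 60 days. The probe stood well above background on 1 array of the 5 day group, 2 of the 12 day group and 3 of the 60 day group, and the 5 day and 60 day arrays did not overlap.

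The Mertk difference between 5 and 12 days was 1.12 ± 0.54 (SE, 3 arrays per age) with a limma adjusted p of 0.247, and it was -0.23 on the spike-in scale. By slide the difference was 1.75, 2.27 and -0.68. Replicate 3 of the 12 day group was the array that lay lowest, and without it the difference was 1.72 with an adjusted p of 0.0476. Without all arrays of replicate 3 it was 2.01, with an adjusted p of 0.0489. Both omissions took out the slide that went against the others, so they are not read as a change of Mertk. Between 5 and 60 days the difference was 1.18 with an adjusted p of 0.119.

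Axl, the TAM receptor that binds Gas6 but not protein S, had 2 probes, both well above background throughout. The probe that stands for the gene gave 1.19, 2.14 and 1.44 at 5 days, 0.09, 1.53 and 0.41 at 12 days and 0.28, 1.29 and 0.88 at 60 days. Replicate 2 was the highest of its age each time, and the ages overlapped across slides. Within each slide, the 12 day array lay below the 5 day array (differences of -1.096, -0.61 and -1.03), as did the 60 day array (-0.90, -0.85 and -0.56).

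Without the block, the Axl difference was -0.91 ± 0.46 between 5 and 12 days (adjusted p 0.263) and -0.77 between 5 and 60 days (adjusted p 0.223). With the block, these adjusted p values were 0.0508 and 0.0479, so Axl passed the threshold between 5 and 60 days only in that fit. On the spike-in scale Axl passed between 5 and 12 days, at -2.26 with an adjusted p of 0.035. The second probe gave -0.86 and -0.83 in the same comparisons. The difference between the 2 Axl probes within an array stayed between 1.01 and 1.48 over the 9 arrays, a check added after the values were seen.

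Tyro3, the TAM receptor abundant in the nervous system, gave -1.25, -1.29 and -0.07 at 5 days and -0.85, -1.36 and -0.48 at 12 days. At 60 days the signals were -0.75, 0.46 and 0.47, so 2 of the 3 arrays lay above all others while replicate 1 did not. The difference between 12 and 60 days was 0.96 ± 0.47 (adjusted p 0.170), and that between 5 and 60 days was 0.93 (adjusted p 0.155). By slide the difference between 5 and 60 days was 0.49, 1.75 and 0.54. Without replicate 1 of the 60 day group, the lowest array of its age, it was 1.33 with an adjusted p of 0.0493. That omission is not read as a change of Tyro3.

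The receptors were also compared with each other inside each array, where scaling has no part and only the change between ages is read. In all, 5 pairs of members were compared between 3 pairs of ages, giving 15 exact permutation tests (2-sided) in which 3 arrays against 3 cannot give a p under 0.1. Mertk minus Axl was higher by 2.03 ± 0.94 (SE) at 12 than at 5 days and by 1.95 at 60 than at 5 days, without overlap (exact p 0.1, adjusted 0.3, for each). Since Mertk was well above background on only 1 of the 5 day arrays, the size of this difference rests on signals near background. Axl minus Tyro3 changed by -1.70 ± 0.59 from 5 to 60 days, also without overlap (exact p 0.1, adjusted 0.3). The change of Mertk minus Tyro3 lay within the overlap of the arrays in all 3 comparisons, with exact p values of 0.4 to 0.5. None of these differences passed after adjustment.

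**Figure D2:**
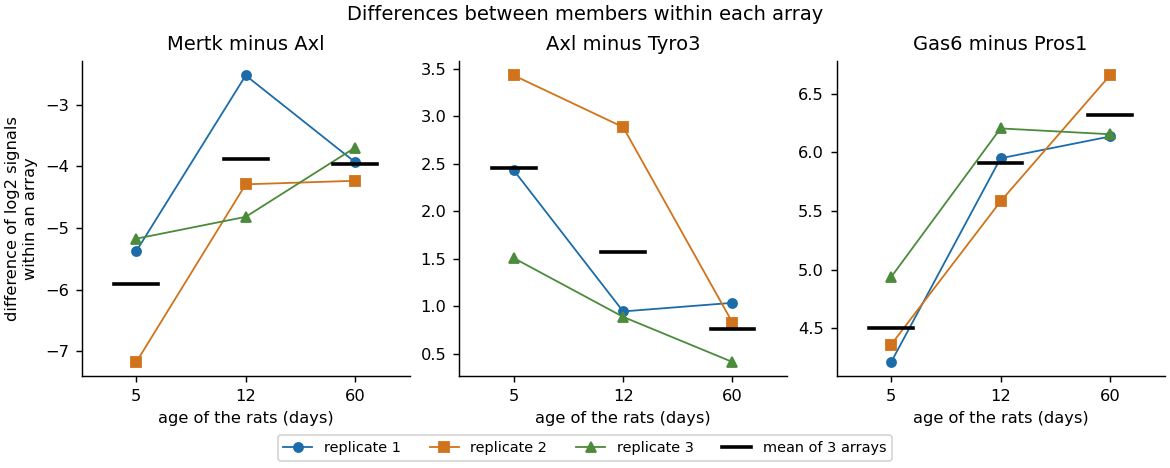
Difference between the log2 signals of 2 members on the same array (y axis) at 5, 12 and 60 days (x axis), for Mertk minus Axl, Axl minus Tyro3 and Gas6 minus Pros1. Points are arrays, lines join arrays of 1 replicate number and black bars are means of 3 arrays. Gas6 minus Pros1 ranges over 4.21 to 4.94 at 5 days, 5.58 to 6.20 at 12 days and 6.13 to 6.65 at 60 days.

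Of the ligands, Gas6 was well above background on all arrays with no called difference, and Pros1 fell between 5 and 60 days. Gas6, a vitamin K-dependent protein that activates all TAM receptors, is represented by a probe at chr16:80930560-80930619 that gave 4.98, 5.05 and 4.50 at 5 days. Signals were 5.05, 5.03 and 4.11 at 12 days and 5.42, 5.32 and 4.42 at 60 days. Replicate 3 lay lowest at each age, and the ages overlapped. The differences were -0.11 between 5 and 12 days, 0.33 between 12 and 60 days and 0.21 between 5 and 60 days (-0.23 on the spike-in scale), with SE of 0.40 each and none called.

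The name Gas6 is carried by 3 probes in at least 1 annotation, and they did not move alike. A second probe named Gas6 in both annotations, at chr16:80926284-80926343, gave 2.42, 2.93 and 3.15 at 5 days, 2.63, 2.80 and 1.66 at 12 days and 3.20, 3.47 and 3.00 at 60 days. The third, A_44_P179811, gave 2.02, 2.12 and 2.61 at 5 days, 0.54, -0.13 and 0.28 at 12 days and -2.09, -2.65 and -2.34 at 60 days, with no overlap between any ages. Tested on its own among 40758 probes, it fell by 2.02 between 5 and 12 days (adjusted p 0.00549), by 2.59 between 12 and 60 days (adjusted p 4.83e-04) and by 4.61 between 5 and 60 days (adjusted p 3.57e-06). In that fit 6.54%, 14.4% and 21.4% of probes were called.

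The name of this probe differs between the annotations. The files of replicate 1 call it Gas6, and those of replicate 3 call it Odz3, the older symbol of Tenm3, a transmembrane adhesion protein of the teneurin family. The rn4 position, chr16:47146890-47146949, is 33.8 Mb from the main Gas6 probe and 2496 bases from A_44_P777884, which both annotations name Odz3. That neighbour gave 1.72, 1.71 and 1.42 at 5 days, -1.65, -1.003 and -0.74 at 12 days and -3.26, -5.06 and -4.30 at 60 days, where 1 array of 3 was well above background. The remaining 3 probes named Odz3 in both annotations were dim. A_43_P10162 passed background on the 5 day arrays only and was lower at each later age without overlap. A_44_P368279 and A_43_P21744 passed on 3 and 2 of the 9 arrays, and their ages overlapped in every comparison, with differences of -1.81 (adjusted p 0.0461) and -0.22 (adjusted p 0.734) between 5 and 60 days and of -0.30 and 0.67 between 12 and 60 days. The rn4 position of A_44_P179811 thus lies beside an Odz3 probe and away from the other probes named Gas6. The annotations name it differently, and its sequence was not aligned to a genome here. The course of A_44_P179811 is therefore not reported as a change of Gas6.

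**Figure D3:**
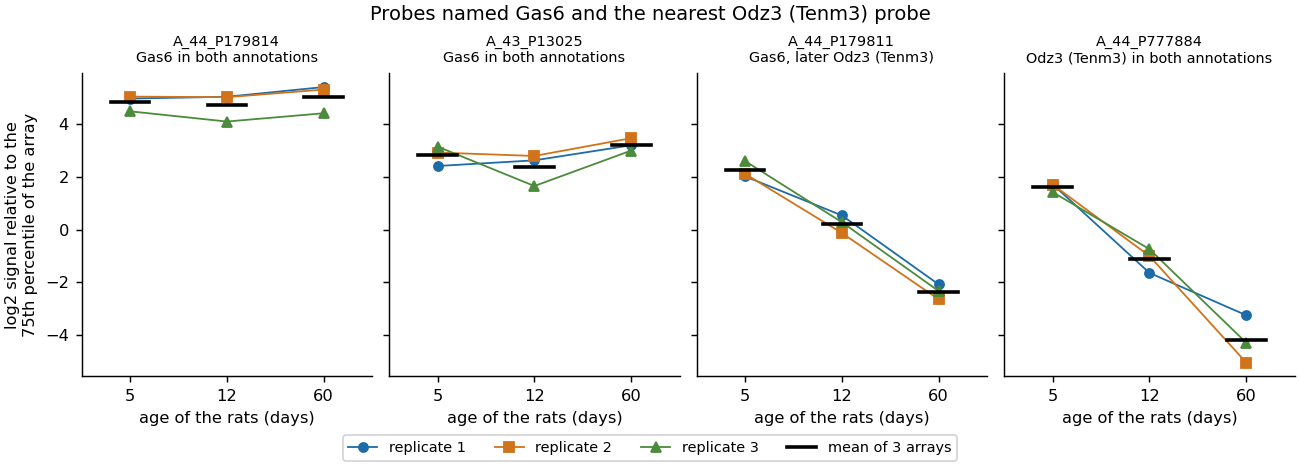
Log2 signal scaled to each array's 75th percentile (y axis) at 5, 12 and 60 days (x axis) for the 3 probes named Gas6 in at least 1 annotation and for A_44_P777884, named Odz3 (Tenm3) in both. Points are arrays, lines join arrays of 1 replicate number and black bars are means. The first 2 probes stay within 4.11 to 5.42 and 1.66 to 3.47, while A_44_P179811 goes from 2.02 or more at 5 days to -2.09 or less at 60 days, as its Odz3 neighbour also declines.

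Pros1, which encodes protein S, an anticoagulant plasma protein and ligand of Tyro3 and Mertk, gave 0.77, 0.69 and -0.44 at 5 days. The probe gave -0.90, -0.55 and -2.10 at 12 days and -0.72, -1.33 and -1.73 at 60 days, below every 5 day array in both cases. The difference was -1.52 ± 0.50 between 5 and 12 days (adjusted p 0.077, and 0.0086 with the replicate block). Between 5 and 60 days Pros1 fell by 1.60 (adjusted p 0.0281), a 3.03-fold lower signal.

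A second Pros1 probe, which only the replicate 3 files name Pros1, gave -0.72, -0.12 and -0.56 at 5 days, -1.92, -1.49 and -2.13 at 12 days and -1.77, -2.64 and -2.06 at 60 days. Tested among all probes, it fell by 1.69 between 5 and 60 days (adjusted p 0.00664). The probe named Pros1 only in the replicate 1 files stayed near background on all arrays. The call of Pros1 between 5 and 60 days was lost without replicate 1 or 2 of the 5 day group, without replicate 2 or 3 of the 60 day group, and without all arrays of replicate 1 or of replicate 2, with adjusted p values of 0.0786 to 0.187. The macrophage and peritubular marker sums given above were also lower at 12 and 60 days than at 5 days, and their part in the Pros1 result was not tested.

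The ligands were compared inside each array as well. Gas6 minus Pros1 was higher by 1.41 ± 0.29 (SE) at 12 than at 5 days and by 1.81 ± 0.28 at 60 than at 5 days, without overlap (exact permutation p 0.1, adjusted 0.3, for each). At 60 against 12 days it differed by 0.40 ± 0.25 with overlap (exact p 0.3). None of these passed after adjustment.

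Mfge8, a secreted glycoprotein that links phosphatidylserine to integrins, rose between 5 and 60 days. It gave 2.05, 2.76 and 3.36 at 5 days, 3.49, 2.73 and 4.30 at 12 days and 3.76, 4.29 and 4.56 at 60 days. All 60 day arrays lay above all 5 day arrays, and the 12 day arrays overlapped with both. The rise was 1.48 ± 0.48 (SE), a 2.79-fold higher signal, with an adjusted p of 0.0327, and by slide it was 1.71, 1.53 and 1.20.

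The call of Mfge8 was lost on the spike-in scale, where the difference was 1.04 (adjusted p 0.399). It was also lost without replicate 1 or 2 of the 5 day group, replicate 2 or 3 of the 60 day group, or all arrays of replicate 1 or 2 (adjusted p 0.0727 to 0.141). The spermatocyte and spermatid marker sums were higher at 60 days as well, and their part in this rise was not tested. Itgb5, the integrin subunit of a known Mfge8 receptor, gave 0.50, 0.20 and 1.73 at 5 days and 2.38, 2.49 and 3.46 at 60 days, and rose by 1.97 (adjusted p 0.0133). Its partner Itgav was not called, with -0.53 in the same comparison (adjusted p 0.204). Itgb3 and Itgb1, other integrin subunits tested, went the other way. Itgb3, above background on 2 of the 5 day arrays, was at least 2.04-fold lower at 60 than at 5 days (adjusted p 0.00133). Itgb1 fell by 1.77 (adjusted p 0.00194).

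Lrp1, a large endocytic receptor for many ligands including calreticulin on dying cells, dipped at 12 days. It gave 0.96, 1.25 and 2.18 at 5 days, 0.54, -0.45 and 0.88 at 12 days and 1.53, 2.32 and 2.29 at 60 days. The 12 day arrays lay below all others, and on every slide the 12 day array was the lowest of the 3. Between 12 and 60 days Lrp1 rose by 1.72 ± 0.46 (adjusted p 0.0185), a 3.30-fold higher signal. Between 5 and 12 days the difference was -1.14 (adjusted p 0.155), which passed the threshold on the spike-in scale at -2.49 (adjusted p 0.0183).

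The second Lrp1 probe, A_44_P333071, gave -3.89, -2.75 and -3.52 at 5 days, -4.44, -4.07 and -4.97 at 12 days and -4.22, -2.25 and -3.43 at 60 days. It was also lowest at 12 days on each slide, though the 12 and 60 day arrays overlapped, and its difference of 1.20 between these ages was not called (adjusted p 0.168 over all probes). Only 1 of the 12 day arrays was well above background for this probe, so its dip rests on signals near background. The Lrp1 call was lost without replicate 2 of the 12 day group (1.33, adjusted p 0.0681), replicate 2 of the 60 day group (adjusted p 0.0702), replicate 3 of the 60 day group (adjusted p 0.0601) or all arrays of replicate 2 (1.20, adjusted p 0.229). Of the 16 macrophage markers, 11 fell between 5 and 12 days and 6 rose between 12 and 60 days, and their part in the Lrp1 result was not tested.

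Scarb1, the HDL receptor that also binds phosphatidylserine on Sertoli cells, differed more between slides than between ages. The probe that stands for it, at chr12:32457588-32457647, gave 3.71, 2.71 and 1.60 at 5 days, 3.85, 3.48 and 1.92 at 12 days and 3.27, 2.57 and 2.48 at 60 days, highest on slide 1 and lowest on slide 3 at each age. The differences between ages were 0.41, -0.31 and 0.10, and none was called. All 3 changed sign on the spike-in scale.

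The second Scarb1 probe, at chr12:32447458-32450453, gave -1.98, -1.02 and -0.25 at 5 days, -0.03, -0.40 and 0.21 at 12 days and -0.85, 0.79 and 0.63 at 60 days. Here slide 1 was lowest at 5 and 60 days. The first probe minus the second was 5.70, 3.88 and 4.12 on slide 1 at 5, 12 and 60 days, 3.73, 3.88 and 1.78 on slide 2 and 1.85, 1.71 and 1.85 on slide 3, a comparison added after the values were seen. Its change between ages was within the overlap of the arrays (exact permutation p 0.6 to 1). The first probe holds the letters AATAAA, the usual polyadenylation signal, 3 bases from its end, and its last 30 bases are shown with these letters in capitals.
Scarb1 A_44_P422696: aaagaaagtcatgactgaagcAATAAAcct
On the strand listed, 1749 of the 41012 probes (4.26%) hold these letters.

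Elmo1 was close to the detection limit. Its 4 probes lie on chr17, and 3 of them stayed near background on all arrays. The remaining probe gave -6.24, -5.18 and -4.83 at 5 days, -6.18, -4.34 and -3.62 at 12 days and -5.32, -3.82 and -2.95 at 60 days. It passed background on 0, 1 and 2 arrays of these ages, so no fold is given. On each slide the signal was lowest at 5 days and highest at 60 days, and slide 1 was the dimmest at every age. Since it passed the filter only through the 60 day arrays, the call it gained with the replicate block between 5 and 60 days is not read as a change.

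**Figure D4:**
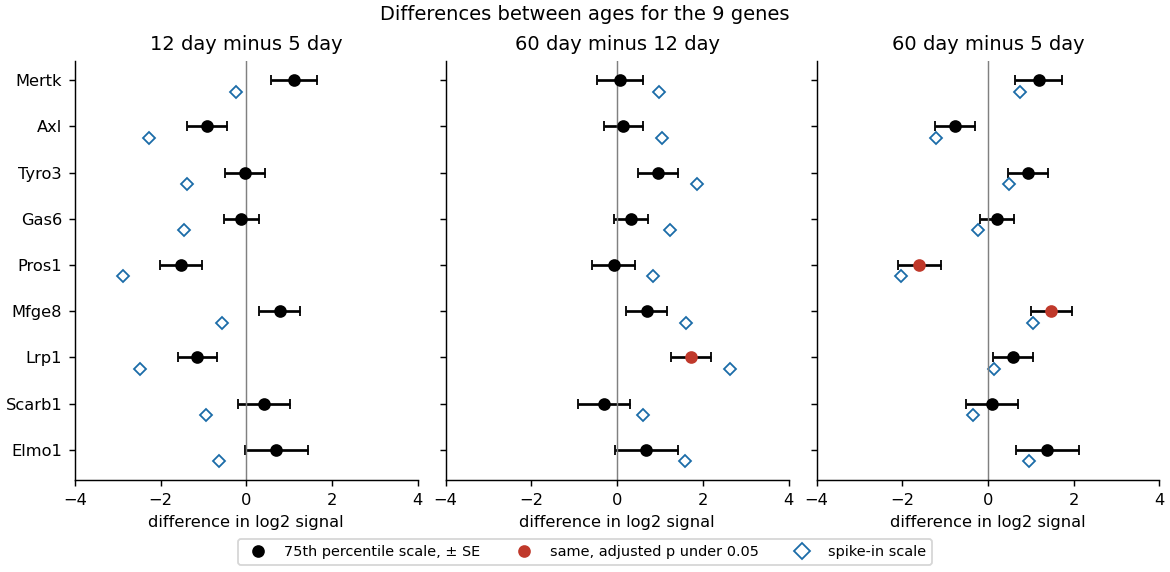
Difference in log2 signal between ages (x axis) for the 9 genes (y axis) in each of the 3 comparisons. Circles with bars are limma differences ± SE on the 75th percentile scale, in red at an adjusted p under 0.05, and open diamonds are the same differences on the spike-in scale. Lrp1 is red at 60 minus 12 days (1.72), Pros1 (-1.60) and Mfge8 (1.48) at 60 minus 5 days, and the diamonds of Mertk, Mfge8, Scarb1 and Elmo1 lie across 0 from their circles at 12 minus 5 days.

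The genes whose courses over the 9 arrays lay nearest to those of a receptor or ligand, by root mean square difference after subtraction of each gene's mean, were taken from 11305 genes with a current symbol. For Tyro3 these were Abhd4 (0.0982 log2 units), Lman2l (0.145) and Gon4l (0.177), against a spread of 0.677 for Tyro3 itself. For Gas6 they were Gnai2 (0.128), Iah1 (0.136) and Erlec1 (0.147), and for Pros1 they were Cnpy4 (0.168), Rab4a (0.246) and Ikbip (0.293). For Axl they were Vwa5a (0.275), Stard10 (0.277) and Smco4 (0.290). The nearest genes to Mertk were farther off, with Gna13 at 0.455, Ppip5k1 at 0.458 and Zfp236 at 0.461 against a spread of 0.828. These distances include what the arrays of a slide share.

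Around the 9 members, 126 further genes of the uptake pathway were tested in 6 lists. Between 5 and 12 days 4 rose and 17 fell (16.7% called, with 12.4% of all genes called), between 12 and 60 days 13 rose and 18 fell (24.6% with 25.3%), and between 5 and 60 days 15 rose and 29 fell (34.9% with 35.3%). Their median differences were -0.12, -0.03 and -0.10, beside 0.05, -0.17 and -0.09 over all genes tested. Between 5 and 12 days, 3 rose and 9 fell without all arrays of replicate 1, 2 rose and 5 fell without replicate 2, and 1 rose and 6 fell without replicate 3. Without replicate 2 of the 5 day group alone 3 rose and 10 fell, and without replicate 2 of the 12 day group 4 rose and 11 fell. Between 12 and 60 days, 5 rose and 11 fell without replicate 2, and 9 rose and 10 fell without replicate 3. Between 5 and 60 days, 7 rose and 20 fell without replicate 2. Calls over all genes went down as well, between 5 and 12 days from 2815 to 1562, 845 and 1552 without replicates 1, 2 and 3. Without replicate 2 they went from 5728 to 2778 between 12 and 60 days and from 7996 to 4941 between 5 and 60 days. Once the replicate number was a block, 31, 45 and 49 of the 126 genes were called in the 3 comparisons, against 21, 31 and 44. Over all genes tested, 17.7%, 34.3% and 44.4% were called with the block. The spermatocyte and spermatid marker sums were higher, and the peritubular and macrophage sums lower, at 60 than at 5 days, and their part in these counts was not tested. On the spike-in scale 14 of the 126 genes were called between 12 and 60 days, beside 3610 of the 22644 genes tested. The counts of single lists below rest on 15 to 28 genes each. Without the block, 6.15%, 12.2% and 17.3% of all genes were called higher in the 3 comparisons, and 6.28%, 13.1% and 18% lower.

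Other receptors and bridging molecules changed in both directions. Of 25 tested, 1 rose and 6 fell between 5 and 12 days, 5 rose and 3 fell between 12 and 60 days, and 5 rose and 11 fell between 5 and 60 days, with a median of -0.53 in the last. In the fit with the replicate block 2 rose and 7 fell, 6 rose and 5 fell, and 5 rose and 12 fell. The complement genes C1qa and C1qb led the falls at 12 days: C1qa was at least 5.74-fold lower, where 12 day signals were not well above background, and C1qb, above background on 2 of the 12 day arrays, fell by 2.66 (adjusted p 0.0111). Both are among 4 genes of this list that the macrophage markers also hold, with C1qc and Cd14. Scarf1, a scavenger receptor, fell by 1.43 (adjusted p 0.0415).

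The scavenger receptor gene Stab2 rose between 12 and 60 days, at least 7.38-fold, and between 5 and 60 days (adjusted p 0.00258). Its signals were -0.39, -1.73 and -1.31 at 60 days, above all younger arrays, where only 1, of the 5 day group, was well above background. Havcr1, which encodes the phosphatidylserine receptor TIM-1, rose at least 4.52-fold between 12 and 60 days, and also rose between 5 and 60 days (adjusted p 0.0026). No size is given against 5 days for these genes, since only 1 of 3 arrays measured them there. Lrp2 (megalin) was at least 1.15-fold higher at 60 than at 5 days, and Cd36, a fatty acid and phosphatidylserine receptor, was at least 1.26-fold lower at 12 days and 1.90-fold lower at 60 days than at 5 days. These bounds set a gene not well above background to the lowest signal that was.

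Of 25 engulfment signalling genes, 0 rose and 2 fell between 5 and 12 days, 1 rose and 2 fell between 12 and 60 days, and 2 rose and 4 fell between 5 and 60 days. In the fit with the replicate block 1 rose and 2 fell, 2 rose and 3 fell, and 2 rose and 4 fell. Dock1, the exchange factor that works with Elmo proteins, gave 0.28, 0.24 and 0.21 at 5 days, -1.27, -0.95 and -1.64 at 12 days and -2.17, -1.79 and -1.79 at 60 days. Dock1 fell by 1.54 between 5 and 12 days (adjusted p 0.00834) and by 2.16 between 5 and 60 days (adjusted p 2.75e-04). Vav3, an exchange factor of the Vav family, fell in all 3 comparisons, with differences of -1.67, -2.36 and -4.02 (adjusted p 0.0101, 6.24e-04 and 8.83e-06).

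Gulp1, an adaptor of engulfment receptors, was at least 2.05-fold lower at 60 than at 12 days (adjusted p 0.0215) and 3.32-fold lower than at 5 days (adjusted p 0.00369). It was above background on 2 arrays at 5 days, 2 at 12 days and 0 at 60 days. Plcg2, a phospholipase, rose by 1.99 between 12 and 60 days (adjusted p 0.0229, with 2 of the 12 day arrays above background) and at least 5.87-fold between 5 and 60 days. Rac1, Elmo2, Elmo3 and Abca1 were not called in any comparison. For Rac1 the differences were 0.04, -0.69 and -0.65, and for Elmo2 they were 0.07, 0.66 and 0.73.

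Of 28 phagosome and digestion genes, 0 rose and 2 fell between 5 and 12 days, 2 rose and 2 fell between 12 and 60 days, and 1 rose and 2 fell between 5 and 60 days. In the fit with the replicate block 1 rose and 3 fell, 5 rose and 2 fell, and 2 rose and 3 fell. The lysosomal sphingolipid activator gene Psap rose by 2.18 between 12 and 60 days (adjusted p 0.00144) and by 2.41 between 5 and 60 days (adjusted p 4.33e-04). Dnase2, which digests the DNA of engulfed cells, fell by 2.06 between 5 and 12 days (adjusted p 0.00136) and by 1.99 between 5 and 60 days (adjusted p 4.15e-04). Rab17 was at least 2.77-fold and 4.18-fold lower at 12 and 60 days than at 5 days. Between 12 and 60 days the lysosomal protease gene Ctsz fell by 1.45 (adjusted p 0.0149) and the lysosomal membrane gene Lamp1 rose by 1.04 (adjusted p 0.0397).

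Of 18 sterol and lipid genes, 3 rose and 1 fell between 5 and 12 days, 3 rose and 4 fell between 12 and 60 days, and 5 rose and 4 fell between 5 and 60 days. The numbers that rose and fell with the replicate block were 3 and 2, 4 and 7, and 5 and 4. Apoe, which carries lipid out of cells, gave 6.88, 6.74 and 6.34 at 5 days, 3.18, 2.53 and 2.68 at 12 days and 1.97, 2.19 and 1.64 at 60 days. It fell by 3.86 between 5 and 12 days (adjusted p 6.69e-05) and by 4.72 between 5 and 60 days (adjusted p 2.30e-06). The lipid-sensing nuclear receptor gene Pparg rose between 12 and 60 days (adjusted p 4.21e-04), with 1 of the 12 day arrays above background, and at least 7.43-fold between 5 and 60 days.

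Lpl, the lipoprotein lipase gene, gave -2.31, -2.16 and -2.78 at 5 days, -0.49, -0.65 and -0.98 at 12 days and -2.85, -6.87 and -6.46 at 60 days, where only replicate 1 was above background. It fell between 12 and 60 days (adjusted p 0.00203) and between 5 and 60 days (adjusted p 0.0178). The array that measured it at 60 days lay just below the lowest 5 day array. Fabp5, a fatty acid binding protein gene, fell by 1.89 between 12 and 60 days (adjusted p 0.00104). Between 5 and 12 days Apoa1 rose at least 2.98-fold and Acsl1, which activates fatty acids, rose by 1.56 (adjusted p 0.012).

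Of 16 genes that display or mask a dying cell, 0 rose and 2 fell between 5 and 12 days, 2 rose and 4 fell between 12 and 60 days, and 2 rose and 4 fell between 5 and 60 days. The numbers that rose and fell with the replicate block were 0 and 3, 2 and 5, and 2 and 5. Cd24, a do-not-eat-me signal, fell in all 3 comparisons, with differences of -2.49, -2.58 and -5.07 (adjusted p 8.72e-04, 2.92e-04 and 1.90e-06). Sirpa, the receptor of the do-not-eat-me signal CD47, fell by 3.31 between 12 and 60 days (adjusted p 4.89e-05) and differed by -2.396 between 5 and 60 days (adjusted p 1.95e-04). The find-me chemokine gene Cx3cl1 fell by 1.96 between 12 and 60 days (adjusted p 0.00528).

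Of 15 genes of TAM ligand maturation, receptor shedding and feedback, 0 rose and 4 fell between 5 and 12 days, 0 rose and 3 fell between 12 and 60 days, and 0 rose and 4 fell between 5 and 60 days. Over all genes, 6.15%, 12.2% and 17.3% were called higher, so with 15 genes the lack of rises is not read as a trait of this list. With the replicate block 1 rose and 6 fell, 0 rose and 4 fell, and 0 rose and 5 fell, the rise being that of Tub. Ggcx, the carboxylase that makes Gas6 and protein S competent to bind phosphatidylserine, gave 0.74, 0.88 and 1.63 at 5 days, -0.23, -0.46 and -0.05 at 12 days and 0.38, 0.25 and 0.44 at 60 days. Ggcx fell by 1.32 between 5 and 12 days (adjusted p 0.0247), without overlap, and differed by 0.60 between 12 and 60 days (adjusted p 0.221). The proteases Adam17 and Adam10, which can shed Mertk and Axl, were not called in any comparison.

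Of the genes that act downstream of TAM receptors to dampen cytokine responses, Twist1 fell in all 3 comparisons, with differences of -2.12, -1.85 and -3.98 (adjusted p 8.10e-04, 7.87e-04 and 2.63e-06). Socs1 fell by 2.27 between 5 and 60 days (adjusted p 0.00301, with 2 of the 60 day arrays above background), and Socs3 was at least 1.89-fold and 3.72-fold lower at 60 days than at 12 and 5 days. Tgfb1, a cytokine gene of this list, fell by 1.56 between 5 and 12 days (adjusted p 0.0496). Peritubular and fibroblast markers fell alongside (4, 9 and 11 of the 14 in the 3 comparisons, 0 rising). Of the 16 macrophage markers, 0 rose and 11 fell between 5 and 12 days. Between 12 and 60 days 6 of them rose and 0 fell, and between 5 and 60 days 3 rose and 8 fell. The part of either marker group in the falls of this list was not tested. On the spike-in scale none of the genes with the largest calls per list changed direction. Among the calls lost there were those of Apoa1 and Acsl1 between 5 and 12 days, Vav3, Ctsz, Lamp1, Fabp5, Cd24, Cx3cl1, Twist1 and Socs3 between 12 and 60 days, and Psap between 5 and 60 days.

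**Figure D5:**
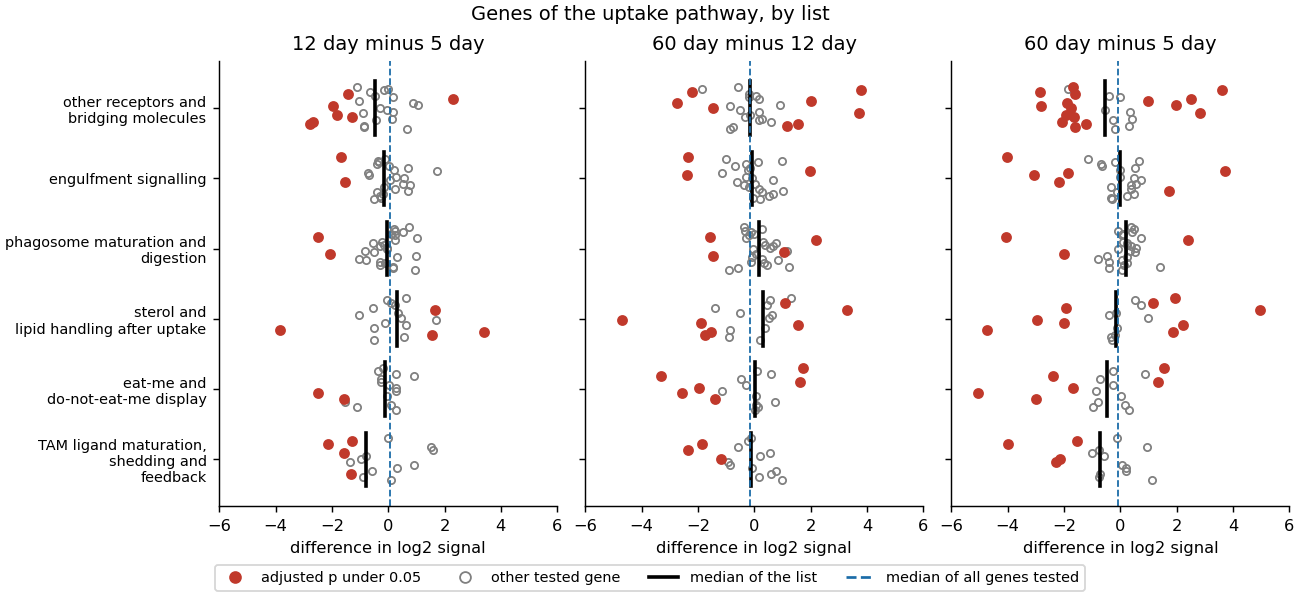
Difference in log2 signal between ages (x axis) for the tested genes of 6 pathway lists (y axis) in each of the 3 comparisons. Each circle is 1 gene, filled red at a limma adjusted p under 0.05, black bars are list medians and the dashed line is the median of all genes tested. The maturation, shedding and feedback list, of 15 genes, has no red circle to the right of 0 in this fit, which has no replicate block. Over all genes, 6.15%, 12.2% and 17.3% were called higher in the 3 comparisons.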

How the data were processed

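Total RNA of 9 samples was labelled with Cy3 after oligo-dT priming and hybridised to a 1-colour Agilent whole-genome rat array, per the labels' protocols. Priming of this kind favours polyadenylated RNA and the 3' ends of transcripts. The submitters' processing notes name Agilent Feature Extraction for the spots, with version 9.5.3.1 per the file headers on a G2505B scanner for replicate 1 and version 10.5.1.1 on a G2505C scanner for replicates 2 and 3. The intensity that was used here is the deposited processed signal, which the software had background-subtracted and detrended within the array, per the file headers; arrays were not scaled to each other. The deposited value table of the series holds log2 values, which equal the scaled values used here within 0.01 for at least 99.6% of probes per array.

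Control spots were left out, and 254 probes without a usable spot on some array were removed. From each log2 processed signal the log2 of its array's 75th percentile, an intensity of 150 to 437, was subtracted. The filter kept 26599 probes, those that passed background on at least 2 of 3 arrays of an age. Each of 22644 genes was represented by its probe of highest mean. Names came from RefSeq accessions (10971 probes), current symbols (5160), older symbols (3558), the file itself (21304) or the member rule (19). The model, with 1 mean for each age over the 9 arrays, was fitted in R 4.3.3 by limma 3.58.1 (lmFit and eBayes, 6 residual and 4.633 prior degrees of freedom), with Benjamini-Hochberg adjustment. The procedure was also run on simulated data drawn independently for each array. These data lacked what arrays of a slide share, so they do not test the fit under that condition. The number of arrays, 3 per age, limits the precision. Replicate numbers mark slides, and the correlations within slides given above led to their use as a block. Permutation tests were made with scipy 1.17.1.

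Named genes are the 9 members, from each list and comparison the 3 largest called differences measured on every array of an age, and 12 genes named whatever their change. Itgb3, Itgb1 and Tub are named in addition. The members and lists were chosen with earlier results of these data known. Some genes counted in the pathway lists are not reported here by name.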

Additional observations from a re-analysis of the deposited data

How the results depend on the processing

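Replicate numbers shared between ages allowed a paired fit. With the replicate block, 1 member was called between 5 and 12 days, 4 between 5 and 60 days and 5 over the 3 ages, against 0, 2 and 2 without it. It changed no other count of member calls.

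On the spike-in scale 3 members were called between 5 and 12 days and 1 between 5 and 60 days, and 14 pathway genes between 12 and 60 days against 31. That scale turned the sign of Mertk (-0.23), Scarb1 (-0.94), Elmo1 (-0.65) and Mfge8 (-0.56) between 5 and 12 days, of Pros1 (0.83) and Scarb1 (0.60) between 12 and 60 days, and of Gas6 (-0.23) and Scarb1 (-0.34) between 5 and 60 days. Of the 22644 genes tested it called 3505, 3610 and 4849 in the 3 comparisons, against 2815, 5728 and 7996. Only 3.37% of those called between 5 and 12 days were higher at 12 days.

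Normexp background correction could be made for replicates 1 and 3 only and called 4, 2 and 187 genes in the 3 comparisons, with 0 members in any comparison or over the 3 ages. There Tyro3 (0.088) and Scarb1 (-0.082) between 5 and 12 days, Mertk (-0.20), Pros1 (0.11) and Elmo1 (-0.19) between 12 and 60 days, and Gas6 (-0.060) and Scarb1 (-0.19) between 5 and 60 days turned sign. Restriction to probes above background on all 9 arrays called 1534, 3280 and 4508 genes. Median scaling and no filter each called 1 member over the 3 ages.

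Leaving out 1 array or 1 replicate number gave 0 to 1 members called at 12 against 5 days and at 60 against 12 days, and 0 to 3 at 60 against 5 days and over the 3 ages. All-gene calls then fell as low as 845, 2778 and 4941, without replicate 2.

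Differences that turned sign there ranged, between 5 and 12 days, over -0.24 to 0.37 for Tyro3, -0.29 to 0.20 for Gas6 and -0.13 to 0.99 for Scarb1. Between 12 and 60 days they ranged over -0.70 to 0.71 for Mertk, -0.15 to 0.57 for Axl, -0.54 to 0.27 for Pros1, -0.89 to 0.072 for Scarb1 and -0.047 to 1.33 for Elmo1. Between 5 and 60 days Scarb1 ranged over -0.44 to 0.61. Within arrays, Mertk minus Axl between 12 and 60 days ranged over -0.68 to 0.59 and was 0.039 with the other Axl probe.

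With A_44_P179811, the probe of split naming that is not read as Gas6, in the place of the Gas6 probe, the difference from the 2 Pros1 probes was -0.50 and -0.64 between 5 and 12 days, -2.51 and -2.28 between 12 and 60 days and -3.01 and -2.92 between 5 and 60 days. Scarb1 minus Lrp1 between 5 and 60 days was 1.19, 0.69 and 0.010 with the other probes, against -0.49. Where no cause is named, the cause was not tested. Mertk and Elmo1 lay near background at 5 days, which limits what their signals can show.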
